A study of Homo sapiens with 8 samples.

Results

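SR proteins and hnRNPs are RNA-binding proteins that decide which exons and introns of a transcript are joined, and 40 genes of this kind were followed across 8 RNA-seq libraries of treated liver cancer cells. The 40 genes are 11 SR proteins (SRSF1 to SRSF11), 4 Tra2 or SR-related proteins (TRA2A, TRA2B, SRRM1, SRRM2), the 4 CLK kinases, 17 hnRNPs counting PTBP1, and 4 genes of 3' splice site recognition (U2AF1, U2AF2, SF3B1, RBM39). They were taken as a fixed list of names, and earlier results of these data were known when the list was chosen. In the whole series 17264 genes had an assembled transcript in 1 or more libraries. Of the 40, 39 had an assembled transcript somewhere. U2AF1 was listed at 0 in all 8 libraries. The GRCh38 build carries a near-identical copy of U2AF1 on the same chromosome, so its level is not known from these files.

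Hepatocellular carcinoma (HCC) cells were left untreated or given sodium pentaborate pentahydrate (NaB), curcumin with piperine (Cur and Pip), or all agents together (the combination treatment) for 48 h. HepG2 is a human liver cancer cell line that keeps many hepatocyte genes on, and its 4 libraries are control, NaB at 2500 µM, Cur at 30 µM with Pip at 6 µM, and these doses combined. The 4 libraries labelled Hep3B, the name of a second HCC line, had NaB at 1700 µM and the same Cur and Pip doses. Each condition had 1 library, so differences within a line have no replicate check, and the only test given is across both lines.

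Of 16 hepatocyte marker genes, 12 to 16 reached 1 FPKM (fragments scaled to transcript length and to library size) in the HepG2 libraries and 0 or 1 did in the Hep3B-labelled libraries, so the liver markers were nearly absent from the second set. The libraries held 24846 to 36652 assembled transcripts each, of which 70.4% to 88.1% fell in an annotated gene. Transcripts with a single exon were 16.4%, 22.7%, 34.1% and 32.2% of those assembled in HepG2 control, NaB, Cur and Pip, and combination, and 14.7%, 19.1%, 22.4% and 28.4% in the same order in the Hep3B-labelled set. The share was higher in every treated library than in the control of its line. Its part in the results below was not tested. Total read counts are not in the files, so depth in reads is unknown. In such bulk samples fewer cells of a type and less RNA per cell cannot be told apart.

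SR proteins bind exons through RNA recognition domains and recruit the splicing machinery through tails rich in arginine and serine, which CLK and SRPK kinases phosphorylate. hnRNPs often act in the opposite sense and can hide splice sites. Many SR and hnRNP genes limit their own output through poison exons. These are short exons with an in-frame stop codon, and transcripts that include one are usually destroyed by nonsense-mediated decay (NMD).

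The starts of the poison exons of SRSF3, SRSF6, SRSF7 and TRA2B are shown first, because forms with these exons were assembled in treated libraries and in neither control. Each run is the GRCh38 reference on the strand of the gene, 5′ to 3′. It gives 20 nt of intron, the exon up to its first stop in the frame of the canonical start codon, that stop in capitals, and up to 27 nt after it.
SRSF3: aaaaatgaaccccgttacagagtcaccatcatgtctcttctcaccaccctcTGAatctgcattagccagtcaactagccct
SRSF7: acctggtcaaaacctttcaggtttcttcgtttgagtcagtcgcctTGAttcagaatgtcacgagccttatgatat
TRA2B: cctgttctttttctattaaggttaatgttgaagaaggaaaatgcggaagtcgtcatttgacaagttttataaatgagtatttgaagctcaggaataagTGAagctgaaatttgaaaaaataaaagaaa
SRSF6: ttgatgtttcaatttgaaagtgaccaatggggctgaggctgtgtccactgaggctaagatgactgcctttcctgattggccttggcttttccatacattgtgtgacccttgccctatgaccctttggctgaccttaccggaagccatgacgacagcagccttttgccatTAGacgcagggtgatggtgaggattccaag
All 4 exons lie in introns inside the coding region and are bounded by ag before and gt after. The SRSF3 exon has 456 nt at chr6:36599821-36600276 on the plus strand, in intron 3 of the canonical transcript. Reading from the normal start, the inserted exon ends the frame after 124 of 164 codons. The SRSF7 exon has 449 nt at chr2:38748898-38749346 on the minus strand and ends it after 137 of 238 codons. The TRA2B exon has 276 nt at chr3:185931577-185931852 on the minus strand and ends it after 38 of 288 codons, and the SRSF6 exon has 268 nt at chr20:43459153-43459420 on the plus strand and ends it after 135 of 344 codons.

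SRSF3, the smallest SR protein, had transcripts with the poison exon in HepG2 cells given Cur and Pip or the combination treatment. They reached 40.3 FPKM beside 41.0 FPKM of transcripts that skipped the exon with Cur and Pip, and 41.2 beside 127.8 FPKM with the combination. In the other HepG2 libraries and in all 4 labelled Hep3B the form was listed at 0, beside skipping transcripts of 123.2 and 90.5 FPKM (HepG2 control and NaB) and 124.4 to 247.8 FPKM (labelled Hep3B). The poison form thus made up 49.6% and 24.4% of the transcripts over this intron in the 2 HepG2 libraries that held it. No transcript in any library was listed under 10% of the most abundant one of its assembled locus, which is a floor of 12.3 FPKM for SRSF3 in HepG2 control. A poison form under that floor is listed at 0.

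TRA2B, a splicing activator that binds GAA-rich exons, had its poison exon in the Cur and Pip and the combination libraries of both lines and in neither control nor NaB library. In HepG2 the form was at 36.0 FPKM with Cur and Pip and 27.6 FPKM with the combination, beside 23.1 and 42.9 FPKM of skipping transcripts. In the libraries labelled Hep3B it was at 18.2 and 29.8 FPKM beside 63.5 and 84.6 FPKM. The shares were 60.9% and 39.1% in HepG2 and 22.3% and 26.1% in the Hep3B-labelled set. The floors in the 4 libraries listed at 0 ran from 3.57 to 10.9 FPKM, under each of the 4 values above.

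SRSF7, an SR protein with a zinc knuckle, gave the same 4 libraries. Its poison form was at 23.9 and 9.15 FPKM in HepG2 with Cur and Pip and with the combination, and at 12.1 and 36.4 FPKM in those labelled Hep3B, against 0 in both controls and both NaB libraries. The shares were 28.8%, 9.07%, 19.6% and 16.5%. The value of 9.15 FPKM in the HepG2 combination library lies under the 10.5 and 13.9 FPKM floors of the Hep3B-labelled control and NaB libraries, so a form of that size could not have been listed there.

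SRSF6 differed, with its poison exon in all 3 treated HepG2 libraries and 1 of those labelled Hep3B. It was at 9.54 FPKM with NaB, 37.1 with Cur and Pip and 6.26 with the combination in HepG2, and 10.4 FPKM with the combination in the cells labelled Hep3B. Transcripts skipping the exon were at 35.01, 0, 30.9 and 56.2 FPKM in the same libraries and at 48.1 FPKM in HepG2 control. With Cur and Pip in HepG2 no assembled transcript held the normal junction over this intron, and the rest of the SRSF6 level came from a form that stopped at the same codon and from 1 that began downstream of the start codon.

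**Figure D1:**
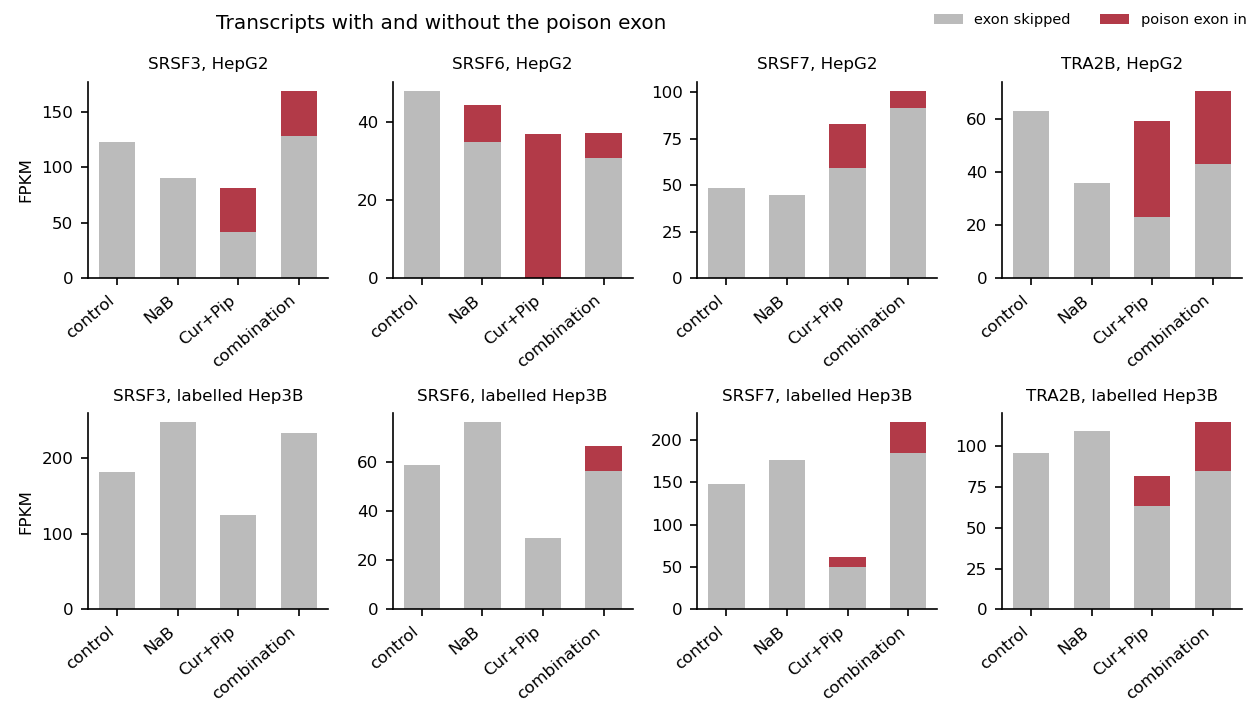
FPKM (y axis) of assembled transcripts that skip (grey) or include (red) the poison exon of SRSF3, SRSF6, SRSF7 and TRA2B in each library (x axis; 1 library per bar, no replicates; each panel has its own scale). No red is seen in either control library, and TRA2B and SRSF7 show it with Cur and Pip and with the combination in both lines.

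RBM39, a cofactor of U2AF, was the exception among the genes with poison exons, since its 73 nt exon at chr20:35740525-35740597 was already present in untreated cells of both lines. It was at 42.5, 62.0, 126.4 and 64.1 FPKM in HepG2 control, NaB, Cur and Pip, and combination, and at 14.8, 0, 17.9 and 0 FPKM in the Hep3B-labelled libraries. A second RBM39 poison exon, of 72 nt, was at 63.9 and 64.1 FPKM in HepG2 with Cur and Pip and with the combination, and at 0 in the other 6 libraries. The remaining poison forms were found in 1 or 2 libraries each. HNRNPL, which binds CA-rich RNA, had one of 70 nt at 11.2 and 44.8 FPKM and SRRM1, an SR-related nuclear matrix protein, one of 130 nt at 9.69 and 2.71 FPKM, both in HepG2 with Cur and Pip and with the combination. SRSF4 had a 175 nt exon at 7.19 FPKM with NaB and a 195 nt exon at 3.82 FPKM with the combination in HepG2. SRRM2, a scaffold of nuclear speckles, had one of 262 nt at 6.11 FPKM only in the Hep3B-labelled control. The HNRNPL value of 11.2 FPKM lies under its floors of 11.7 FPKM in HepG2 control and 12.4 to 22.1 FPKM in the Hep3B-labelled libraries. The SRSF4 value of 3.82 FPKM lies under its floors of 4.05 FPKM in HepG2 with Cur and Pip and 4.02 to 4.87 FPKM in the Hep3B-labelled libraries. Forms of these sizes could not have been listed there.

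In all, 18 of the 40 genes have an annotated poison exon under the rule used, and 17 (16 in the Hep3B-labelled combination library) were expressed at 1 FPKM or more. A poison form was assembled for 1, 3, 7 and 8 of these in HepG2 control, NaB, Cur and Pip, and combination. Over all genes with such an exon the share was 3.66%, 3.78%, 6.75% and 7.64% in the same libraries. For the libraries labelled Hep3B the counts were 2, 0, 3 and 3, beside 3.52%, 3.51%, 3.76% and 5.1% of all such genes. The share of the splicing factors thus ran from 5.88% to 47.1% in HepG2 and from 0% to 18.8% in the Hep3B-labelled set. These counts need both splice sites of the exon to match. With 1 or both matching they were 3, 7, 9 and 9 in HepG2, beside 5.9%, 7.1%, 11.4% and 12.0% of all such genes, and 4, 1, 4 and 4 in those labelled Hep3B, beside 5.13%, 6.42%, 6.12% and 7.9%. The Hep3B-labelled control then held as many as the Cur and Pip and the combination libraries of that set. TRA2A has no exon that meets the rule. CLK3, CLK4, HNRNPH1, PTBP1, SRSF9, SRSF10, SRSF11, U2AF1 and U2AF2 have one and showed it in no library.

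Reading each assembled transcript from the canonical start codon gave a wider count of forms that stop early, more than 50 nt before the last exon junction. Such a form was found for 7 of 36, 10 of 33, 15 of 35 and 19 of 36 of the splicing factors with a readable transcript in HepG2 control, NaB, Cur and Pip, and combination, beside 12.0%, 14.7%, 20.8% and 19.8% of all protein-coding genes. In the libraries labelled Hep3B the counts were 10 of 37, 11 of 37, 10 of 36 and 10 of 35, beside 11.9%, 15.7%, 15.4% and 18.7%. The splicing factor count was thus higher in the treated libraries than in the control in HepG2, and stayed at 10 or 11 in the Hep3B-labelled libraries. CLK1, CLK4 and HNRNPU were among the genes with an early stop in both controls.

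Intron-retaining forms, in which an exon covers a whole intron of the canonical transcript, were fewer. In HepG2 2, 3, 8 and 2 of the 36 or 37 multi-exon splicing factors had one in control, NaB, Cur and Pip, and combination, beside 5.59%, 7.36%, 11.9% and 8.64% of all such genes. In the libraries labelled Hep3B the counts were 1, 3, 1 and 1, beside 5.09%, 6.57%, 6.77% and 7.79%. HNRNPAB was counted in all 8 libraries for a 74 nt stretch that an annotated protein-coding form also reads as exon, so it is no retention in the strict sense. With HNRNPAB and SRSF2 left out on that ground, the counts were 1, 2, 6 and 1 in HepG2 and 0, 2, 0 and 0 in those labelled Hep3B. The share of all genes by that rule was 4.24%, 5.98%, 10.4% and 7.31% in HepG2 and 3.79%, 5.07%, 5.25% and 6.2% in those labelled Hep3B. The 6 in HepG2 with Cur and Pip were CLK2, CLK3, HNRNPH1, HNRNPK, SRRM2 and SRSF11, and the retained intron was longest in SRSF11, at 3712 nt and 18.7% of the gene's FPKM. SRRM2 kept a 1067 nt intron in both HepG2 libraries with Cur and Pip, in 24.4% and 34.7% of its FPKM.

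**Figure D2:**
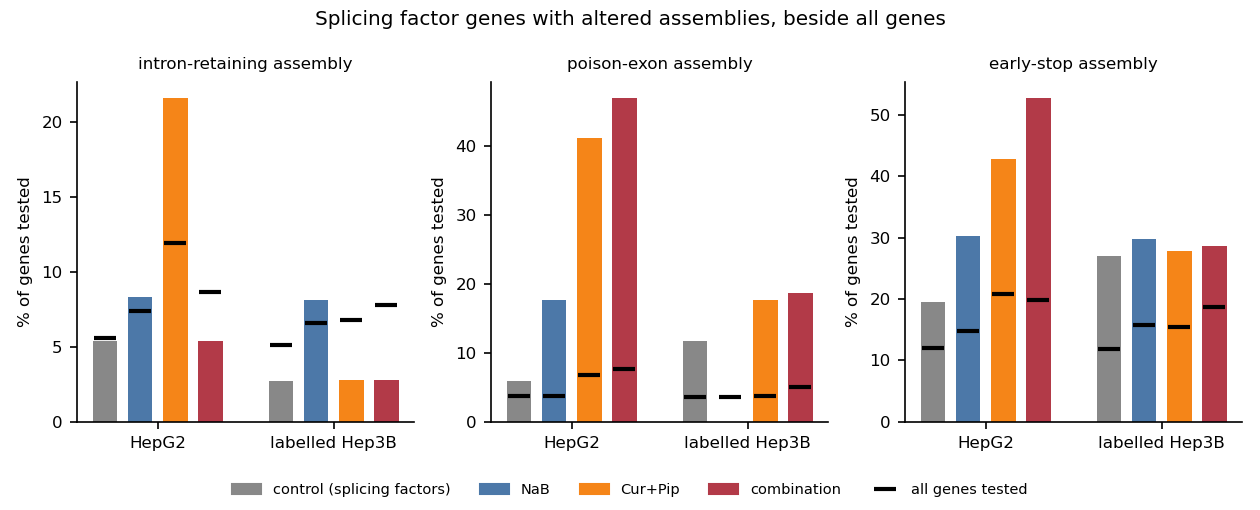
Percent of splicing factor genes tested (bars, y axis) with an intron-retaining, poison-exon or early-stop assembly in each library (1 library per bar), with the percent of all genes tested in that library as a black dash. Poison-exon bars reach 41.2% and 47.1% in HepG2 with Cur and Pip and with the combination, where the dashes are at 6.75% and 7.64%.

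The CLK kinases phosphorylate SR proteins and shift them from storage in nuclear speckles to transcripts. Among genes with an assembled transcript in both libraries of a comparison, only CLK1, in HepG2, had a log2 difference past 1.5 by every measure used. CLK1 was at 10.6, 14.1, 47.1 and 58.7 FPKM in HepG2 control, NaB, Cur and Pip, and combination, and at 10.1, 24.3, 18.8 and 29.4 FPKM in the Hep3B-labelled set. All 6 treated libraries were above the control of their line. The intervals given in the files, which cover the estimate within a library only, were 9.18 to 12.0 FPKM in HepG2 control and 53.7 to 63.7 FPKM with the combination. On the log2(FPKM + 1) scale the differences from control were 0.38, 2.05 and 2.36 in HepG2 and 1.19, 0.83 and 1.45 in those labelled Hep3B.

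CLK4, the closest relative of CLK1, was also above the control of the line in all 6 treated libraries. It was at 4.65, 6.22, 9.66 and 10.5 FPKM in HepG2 and at 3.01, 4.05, 7.38 and 7.70 FPKM in the Hep3B-labelled libraries. Its log2 difference was below that of CLK1 except in the Hep3B-labelled Cur and Pip library, where it was 1.06 for CLK4 and 0.83 for CLK1. CLK3 was at 11.6, 14.5, 31.5 and 18.4 FPKM in HepG2 and 16.8, 18.9, 23.8 and 27 FPKM in those labelled Hep3B. CLK2 alone of the 4 was below control in both combination libraries, with 9.69, 8.81, 6.78 and 3.07 FPKM in HepG2 and 13.8, 6.03, 13.99 and 1.41 FPKM in those labelled Hep3B. In 4 libraries, however, transcripts that run from CLK2 into its neighbour SCAMP3 covered CLK2 coding bases and were not counted for CLK2. The transcripts that were counted in HepG2 had 21 exons with NaB and 17 and 19 with Cur and Pip. The canonical CLK2 transcript has 12 introns, and whether these longer forms also run past CLK2 was not tested. The mean depth over the CLK2 coding bases, which counts every transcript there, was 9.23, 8.80, 18.2 and 8.18 FPKM in HepG2 and 13.6, 5.84, 19.3 and 5.17 FPKM in those labelled Hep3B. The log2 difference of CLK2 with Cur and Pip was 0.91 by coding depth and -0.46 by summed FPKM in HepG2, and 0.47 and 0.01 in those labelled Hep3B. In the HepG2 combination library it was -0.16 by coding depth and -1.39 by summed FPKM, and in the Hep3B-labelled one -1.25 and -2.62.

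**Figure D3:**
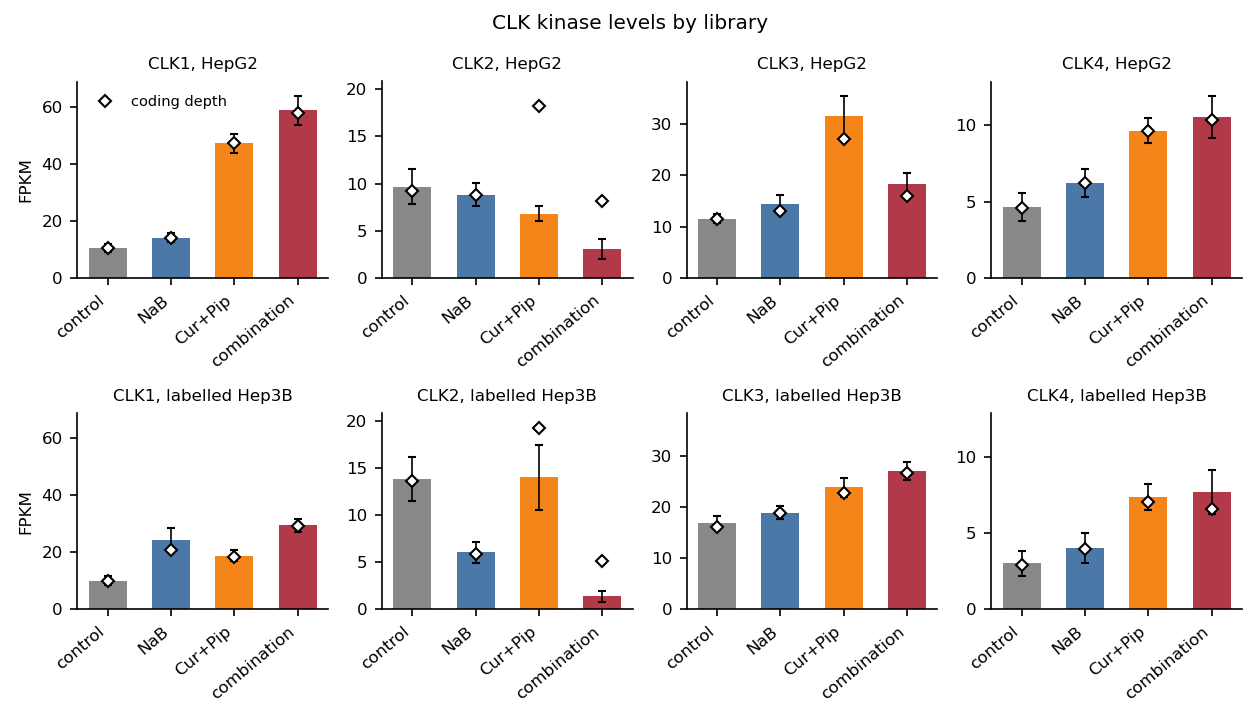
Summed FPKM (bars, y axis) of CLK1 to CLK4 in each library, with the intervals given in the files (error bars, within-library estimate only) and the mean depth over the coding bases (open diamonds). CLK1 bars reach 47.1 and 58.7 FPKM in HepG2 with Cur and Pip and with the combination. CLK2 diamonds lie above the bars in the libraries where transcripts running into the next gene were not counted for CLK2.

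CLK1 and CLK4 also share a regulated exon, exon 4, whose loss shifts the frame ahead of the kinase domain. Exon 4 is shown in capitals with 20 nt of the exon on each side, because full-length and exon 4-less forms were assembled side by side.
CLK1: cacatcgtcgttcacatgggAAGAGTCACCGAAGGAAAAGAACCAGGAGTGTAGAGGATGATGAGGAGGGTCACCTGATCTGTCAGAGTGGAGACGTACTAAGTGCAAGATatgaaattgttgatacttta
CLK4: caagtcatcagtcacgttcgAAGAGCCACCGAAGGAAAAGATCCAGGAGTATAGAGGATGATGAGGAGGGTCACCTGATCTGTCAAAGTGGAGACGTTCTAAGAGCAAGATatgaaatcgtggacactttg
The exons have 91 nt each, at chr2:200860125-200860215 and chr5:178617344-178617434 on the minus strands, and 85 of the 91 bases were identical. Without exon 4 the CLK1 frame ends after 136 of 484 codons. CLK1 transcripts with the exon were at 7.69, 10.1, 47.1 and 45.5 FPKM in HepG2 and at 6.499, 12.6, 14.8 and 25.8 FPKM in the Hep3B-labelled set. Transcripts without it were at 2.91, 3.96, 0 and 13.2 FPKM and at 3.60, 6.89, 4.002 and 3.595 FPKM. The share without exon 4 was 27.4% and 35.6% in the controls, 28.2% and 35.4% with NaB, 0% and 22.5% in HepG2 with Cur and Pip and with the combination, and 21.3% and 12.2% in those labelled Hep3B. The full-length form was thus higher than control in all 6 treated libraries. The listing floor of 10% of the largest transcript applies here too, so the 0% in HepG2 with Cur and Pip does not show that the form without exon 4 was absent.

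Past an absolute log2 difference of 1.5, the cutoff of the study's methods, the splicing factors gave few calls. In HepG2, 1 of 39 passed with NaB, where 9.81% of all genes did (4.72% higher, 5.08% lower). With Cur and Pip 2 were higher and 1 lower, beside 19.2% of all genes (8.98% higher, 10.2% lower), and with the combination 2 were higher and 0 lower, beside 19.5% (8.01% higher, 11.5% lower). In the Hep3B-labelled set 0 of 39 passed with NaB, beside 12.0% of all genes (4.98% higher, 7.03% lower). With Cur and Pip 1 was higher and 2 lower, beside 10.4% (6.47% higher, 3.97% lower), and with the combination 0 were higher and 2 lower, beside 15.0% (6.8% higher, 8.19% lower). By summed FPKM the share of the splicing factors, at 0% to 7.69%, was below that of all genes in each comparison. The splicing factors were also more highly expressed than most genes. Their median coding depth was 94.9 FPKM in HepG2 control and 88.4 FPKM in the Hep3B-labelled control, against 12.3 and 13.6 FPKM over all genes of at least 1 FPKM. The part of expression level in the lower share was not tested. The lower calls were SRSF1 with NaB in HepG2 and, in the Hep3B-labelled set, HNRNPC with Cur and Pip and SRSF9 with the combination, each listed at 0 on the treated side, besides HNRNPA1 in both Cur and Pip libraries and CLK2. Among genes listed on both sides 0 were lower with NaB in HepG2, and 1 and 1 with Cur and Pip and with the combination in the Hep3B-labelled set. The 3 comparisons of a line share its control library. Median log2 differences of the 39 genes were -0.13, 0.08 and -0.09 in HepG2 and 0.12, -0.21 and 0.02 in those labelled Hep3B, beside 0.00, 0.00, 0.00, -0.12, 0.00 and -0.05 over all genes.

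**Figure D4:**
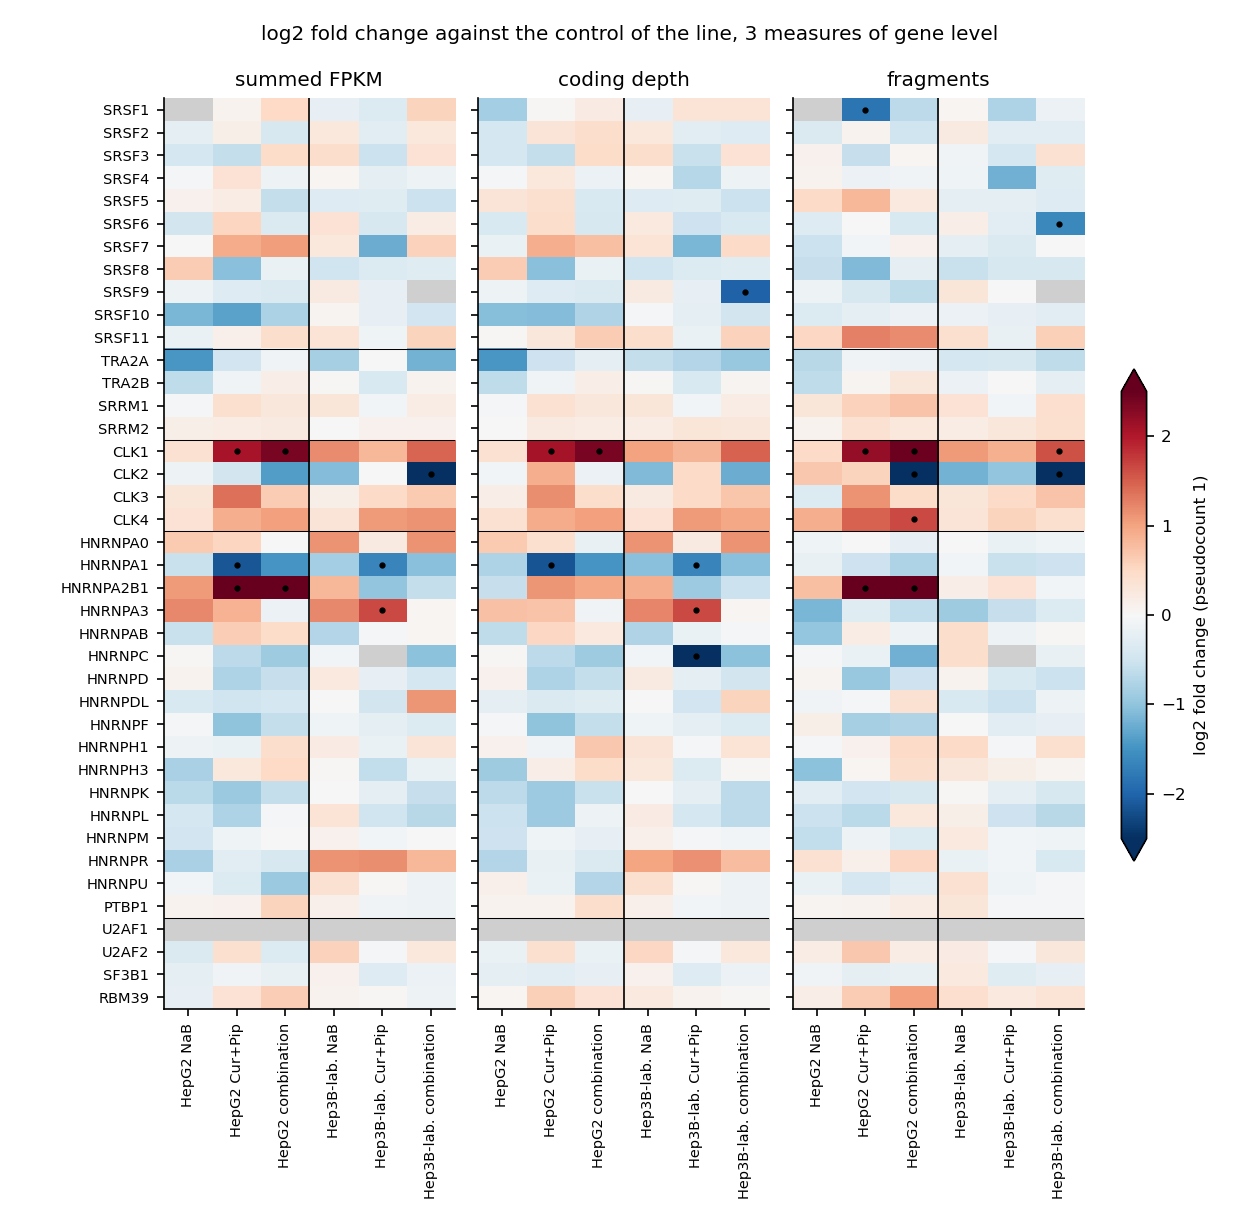
log2 difference from the control of the line (colour, cut at 2.5) for the 40 genes (rows, in order of role) in the 6 comparisons (columns). Panels are by summed FPKM, by mean depth over coding bases, and by fragments without division by length. Dots mark values past 1.5. Grey marks genes listed at 0 on one side in the summed FPKM and fragments panels, and U2AF1, listed at 0 throughout, in all panels. CLK1 in HepG2 with Cur and Pip and with the combination is dotted on all 3 panels, and HNRNPA1, HNRNPA2B1 and HNRNPA3 change shade between panels.

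The calls differed between measures of level. The measures were summed FPKM, mean depth over coding bases and fragments not divided by length. With genes listed at 0 on one side left out of the first and last, 15 gene and comparison pairs passed 1.5 by at least 1. Of these, 2 passed by all 3 measures, and both were CLK1 in HepG2. The counts by measure below keep genes listed at 0. With these kept, HNRNPC with Cur and Pip and SRSF9 with the combination, both in the Hep3B-labelled set, were also lower by all 3. SRSF1 with NaB in HepG2 was lower by summed FPKM and by fragments only. By coding depth 0, 2 and 1 genes passed in HepG2 (6.05%, 15.8% and 16.0% of all genes) and 0, 3 and 1 in those labelled Hep3B (8.73%, 5.07% and 10.3%), so with Cur and Pip in the latter the share of the splicing factors, 7.69%, was above that of all genes. By fragments 1, 3 and 4 passed in HepG2 (10.4%, 21.9% and 22.8%) and 0, 1 and 4 in those labelled Hep3B (14.5%, 10.8% and 17.0%).

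HNRNPA1, the most abundant of the 40 in both controls and a repressor of many exons, passed by FPKM and not by fragments. Its summed FPKM was 883.1, 596.7, 199.7 and 315.4 in HepG2 and 923.7, 509.4, 293.0 and 445.6 in the Hep3B-labelled libraries. Its fragments, the FPKM times the length in kb, were 983.8, 863.9, 683.4 and 579.7 and 1355, 1294, 920.8 and 951.6. The mean length of its assembled transcripts, weighted by FPKM, was 1114, 1448, 3422 and 1838 nt and 1467, 2540, 3143 and 2136 nt. Both measures were below the control of the line in all 6 treated libraries, but the largest log2 difference was -2.14 by FPKM and -0.76 by fragments. HNRNPA1 has many processed copies in the genome, so reads may be shared with them. Exon 8 of its canonical transcript, 156 nt, was skipped by every transcript over it in all 8 libraries.

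HNRNPA3, a close relative, was above control by FPKM in 5 of 6 treated libraries and below it by fragments in all 6. Its summed FPKM was 102.0, 236.6, 186.7 and 91.7 in HepG2 and 67.1, 155.3, 213.4 and 69.8 in those labelled Hep3B, the highest values being with NaB and with Cur and Pip. Its fragments were 518.6, 233.2, 418.7 and 338.0 and 397.1, 215.1, 267.5 and 314.9, highest in both controls. Assembled transcripts averaged 5083 and 5919 nt in the controls and 986 to 4514 nt in the treated libraries. The direction of HNRNPA3 thus cannot be given from these files.

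**Figure D5:**
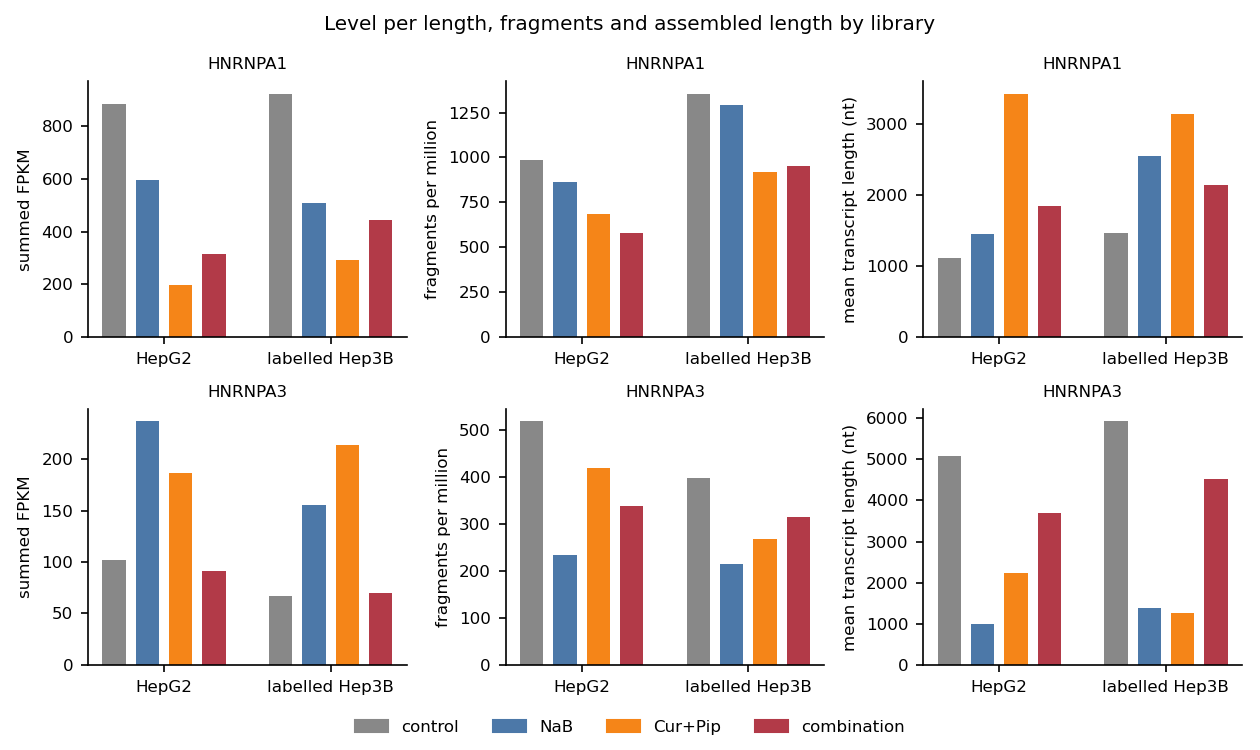
Summed FPKM, fragments (FPKM times length in kb) and FPKM-weighted mean transcript length in nt (y axes) of HNRNPA1 and HNRNPA3 by library (bars, 1 library each). HNRNPA1 is at 883.1 and 199.7 FPKM in HepG2 control and with Cur and Pip, with fragments of 983.8 and 683.4, and HNRNPA3 fragments are highest in both controls while its FPKM is highest with NaB in HepG2 and with Cur and Pip in the Hep3B-labelled set.

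HNRNPA2B1, a partner of HNRNPA1 that also sorts RNA, was at 6.01 and 13.7 FPKM in HepG2 control and NaB and at 179.5 and 171.5 FPKM with Cur and Pip and with the combination. In the libraries labelled Hep3B it was at 301.6, 539.7, 151.1 and 199.2 FPKM, with fragments of 1052, 1175, 1351 and 1009. The log2 difference with Cur and Pip in this set was thus -0.99 by FPKM and 0.36 by fragments, the transcript there having 8938 nt. HepG2 control and NaB held 5 assembled transcripts of 9848 to 10877 nt that covered 97.9% to 100% of the coding bases but had under 50% of their length in the gene, and were not counted for it. Mean depth over the coding bases was 74.8, 50.04, 161.6 and 146.7 FPKM in HepG2, a log2 difference of 1.10 with Cur and Pip in place of 4.69.

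The genes listed at 0 on one side were of the same kind. HNRNPC, which masks the 3' ends of introns, was at 322.9 FPKM in the Hep3B-labelled control and listed at 0 with Cur and Pip, where 3 transcripts of 12137 to 12176 nt over its whole coding region summed to 42.6 FPKM of depth. SRSF9 was at 183.8 FPKM in the same control and listed at 0 with the combination, where a 4566 nt transcript into TRIAP1 held its coding bases at 44.7 FPKM. SRSF1, the founding SR protein, was at 36.0 FPKM in HepG2 control and listed at 0 with NaB, where transcripts running into VEZF1 covered its coding bases. Its coding depth was 52.4 FPKM in HepG2 control and 28.4 FPKM with NaB. No fold is given for these 3 genes.

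No SR protein listed on both sides passed 1.5 by summed FPKM. By this measure the 11 SR proteins had medians of -0.16, 0.12 and -0.16 on the log2 scale in HepG2 and 0.22, -0.30 and 0.18 in those labelled Hep3B. With Cur and Pip in the latter, 11 of 11 were below control by summed FPKM and by fragments and 10 of 11 by coding depth, the lowest by summed FPKM being SRSF7 at -1.25. Of all genes listed on both sides there, 48.36% were above control by summed FPKM, 48.67% by fragments and 44.02% by coding depth. Of the 39 splicing factors, 28 were below control by summed FPKM in that library, so the lean was not particular to the SR proteins. SRSF3 was at 123.2, 90.5, 81.4 and 170.1 FPKM in HepG2 and 182.6, 247.8, 125.4 and 234.0 FPKM in those labelled Hep3B. SRSF7 was at 48.5, 48.5, 93.1 and 100.8 FPKM and at 147.8, 176.6, 61.6 and 220.6 FPKM, but its fragments differed from control by at most 0.55 on the log2 scale. SRSF10, a repressor when unphosphorylated, was at 45.2, 19.9, 17.4 and 25.8 FPKM in HepG2 and 42.4, 44.4, 36.6 and 30.04 FPKM in those labelled Hep3B. In HepG2 its log2 differences were -1.15, -1.33 and -0.79 by FPKM and -0.34, -0.24 and -0.15 by fragments. By FPKM SRSF8 was at -1.04 in HepG2 with Cur and Pip. By fragments SRSF6 passed in the Hep3B-labelled combination library, at -1.60 against 0.18 by FPKM, and SRSF1 in HepG2 with Cur and Pip, at -1.83 against 0.08.

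Of the Tra2 and SR-related genes, TRA2B was at 63.0, 40.1, 59.1 and 71.0 FPKM in HepG2 and at 107.1, 108.9, 82.3 and 114.4 FPKM in those labelled Hep3B, poison forms included. With Cur and Pip in HepG2 the full-length TRA2B form was thus 23.1 of 59.1 FPKM. TRA2A was at 23.2, 7.80, 16.4 and 21.8 FPKM and at 49.5, 27.3, 50.2 and 21.3 FPKM, and SRRM2 stayed between 42.9 and 50.8 FPKM in all 8 libraries. The other 13 hnRNPs, PTBP1 among them, showed no log2 difference past 1.5 by any measure. HNRNPK, a KH-domain protein, was at 304.6, 189.5, 158.6 and 201.6 FPKM in HepG2 and 289.2, 290.8, 242.9 and 192.6 FPKM in those labelled Hep3B. Of the 3' splice site genes, SF3B1, the branch point factor, ran from 56.3 to 101.2 FPKM, U2AF2 from 86.2 to 147.9 FPKM and RBM39 from 83.0 to 219.4 FPKM, none past 1.5.

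Skipped exons were counted over all genes of the list with inner exons. Of 331 inner exons of 38 genes, 20 were skipped by a transcript in at least 1 library, 12 in at least 4 and 4 in all 8. The same count was not made over all genes, so whether these numbers are high or low is not known. HNRNPD exon 7 was left out in 56.8% to 76.9% and HNRNPM exon 13 in 32.7% to 46.0% of the FPKM over them, with the HepG2 control at the low end of the first range and the high end of the second. PTBP1 exon 9, of 78 nt, was left out in 0%, 0%, 45.2% and 22.98% in HepG2 and 14.6%, 14.2%, 0% and 0% in those labelled Hep3B, so the lines did not share a direction.

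With both lines in one fit, limma called 0 of 39 splicing factors at an adjusted p under 0.05 in each of the NaB, Cur and Pip, and combination contrasts, where it called 0.0%, 0.0388% and 0.123% of 15460 genes. At an unadjusted p under 0.05 it called 1, 3 and 4 of 39, beside 4.72%, 5.92% and 10.7% of all genes. The estimates of limma with SE for the combination were 1.91 ± 0.57 for CLK1 (adjusted p = 0.416, higher in 2 of 2 lines), 1.07 ± 0.28 for CLK4 (adjusted p = 0.416) and -1.27 ± 0.34 for HNRNPA1 (adjusted p = 0.416). CLK2 was at -2.01 ± 0.51 by summed FPKM (limma adjusted p = 0.416) and at -0.70 by coding depth. For Cur and Pip HNRNPA1 was at -1.90 ± 0.34 (limma adjusted p = 0.534, lower in 2 of 2 lines). The fit leaves 3 residual degrees of freedom, and the dose of NaB differed between the lines. Differences between the lines in their response count as spread in it, so a change in 1 line only was not tested.

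Genes that work beside the splicing factors were read from lists of names. Of 14 NMD and exon junction genes, 12, 12, 9 and 11 were above control by summed FPKM in HepG2 with Cur and Pip and with the combination and in the same libraries labelled Hep3B, with medians of 0.29, 0.51, 0.19 and 0.73 on the log2 scale. Of all genes listed on both sides, 48.91%, 48.95%, 48.36% and 44.35% were above control in the same 4 libraries. With NaB 8 and 10 of the 14 were above control in HepG2 and in the Hep3B-labelled set, and the medians were 0.03 and 0.08. The share of all genes listed on both sides was 51.06% and 39.79% there. RBM8A, a core of the exon junction complex, passed 1.5 in HepG2 with Cur and Pip and in the Hep3B-labelled NaB and combination libraries, though not by fragments in any, and SMG1, the kinase of NMD, passed in HepG2 with Cur and Pip at 64.7 FPKM against 16.8 FPKM. UPF2 passed in the Hep3B-labelled combination library at 30.8 FPKM against 8.35 FPKM, with a coding depth of 10.9 FPKM. The 38 core spliceosome genes had medians between -0.18 and 0.08 and at most 5 of 37 past 1.5 in a comparison, with Cur and Pip in HepG2, where 19.2% of all genes passed, the small Sm proteins SNRPD1, SNRPD2 and SNRPG among the lower ones and SNRPE lower in some and higher in others. Of 9 other kinases and phosphatases of SR proteins, none passed 1.5. The 26 other splicing regulators had 0 to 2 of 25 past 1.5 per comparison, beside 9.81% to 19.5% of all genes, among them ACIN1, which was at 72.1 FPKM in HepG2 control and listed at 0 with Cur and Pip and with the combination.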

How the data were processed

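Per the labels and methods, the authors checked reads with FastQC, mapped them to GRCh38 with STAR and assembled each library with Cufflinks; Cuffdiff is also named, and none of these has a version in the labels or methods. RNA was isolated in triplicate, but 1 library per condition was used here and pooling is not stated. The limma p-values thus measure spread between these libraries, where differences between the lines in their response count as spread. The values deposited by the authors are FPKM, an interval and read depth for each assembled transcript.

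Each transcript was given to the GENCODE release 44 gene holding at least 50% of its exonic bases on its strand (bedtools 2.31.1), and FPKM were summed per gene. Fold changes are log2(FPKM + 1) differences, over genes with FPKM of at least 1 in 1 or more libraries of the line. Coding depth is the mean summed FPKM over coding bases of the canonical transcript; fragments are FPKM times transcript length in kb. Poison exons are inner exons of annotated NMD transcripts inside canonical introns, in no protein-coding transcript. limma 3.58.1 in R 4.3.3 fitted line and treatment to 8 libraries with Benjamini-Hochberg adjustment, and the scripts were tested on simulated data. Junctions matched the annotation at 92.4% to 94.8%.

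The genes and lists were chosen with earlier results of these data known. Genes given in full are those past 1.5 and listed on both sides, those with a poison form, and the CLK kinases; exon 4 of CLK1 and CLK4, the skipped-exon and early-stop counts, coding depth and fragments were chosen after values were seen. One result on a gene outside the 40 is not reported here.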

Additional observations from a re-analysis of the deposited data

Results flagged for a closer look

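HNRNPR, an RNA-binding protein of the hnRNP family, was the only one of the splicing factors listed in all libraries whose summed FPKM was below control in all 3 treated HepG2 libraries and above control in all 3 treated libraries labelled Hep3B. Its mean log2 difference was -0.49 in HepG2 and 1.04 in those labelled Hep3B, 1.52 apart, and this difference was not tested. It was at 73.0, 41.3, 61.1 and 55.3 FPKM in HepG2 and 49.8, 110.1, 113.0 and 88.8 FPKM in those labelled Hep3B. By fragments the signs were the other way round, at 0.38, 0.12 and 0.51 in HepG2 and -0.16, -0.06 and -0.39 in those labelled Hep3B. The mean assembled length was 2193 nt in HepG2 control and 6812 nt in the Hep3B-labelled control. The part of assembled length in the difference was not tested.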

How the results depend on the processing

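Each condition had 1 library and transcripts under 10% of the largest one of a locus are not listed, so small differences and rare forms are out of reach, and depth in reads is unknown. Of the counts and tests recomputed, 132 equalled the main count or stayed within 1.5 times of it, and 22 did not. Those 132 include the limma counts at an adjusted p under 0.05, which were 0 in every setting that kept all 8 libraries. They also include fits with 1 library left out, which cannot decide this because they leave a treatment or the control with 1 library. Of 96 recomputed log2 differences of single genes, 69 moved by less than the set limit, 25 moved further and 2 changed sign. The number of splicing factors past 1.5 in HepG2 with NaB was 2 with a pseudocount of 0.1, 3 by the largest transcript, 0 over genes listed in all 4 libraries and 0 by coding depth, against 1. With Cur and Pip it was 1 by exon depth and 6 by the largest transcript in HepG2, against 3, and 1 by exon depth and 1 by fragments in the Hep3B-labelled set, against 3. With the combination it was 1 by coding depth and 4 by fragments in HepG2, against 2. In the Hep3B-labelled set with the combination it was 1 over genes listed in all 4 libraries, 1 by coding depth and 4 by fragments, against 2. The shares of all genes by coding depth and by fragments are given above. For the other settings no share of all genes stands beside these counts, so they do not set the splicing factors against other genes. Counting only introns that no protein-coding exon covers, 1, 1, 0, 0 and 0 genes had a retained intron in HepG2 control, HepG2 combination, and Hep3B-labelled control, Cur and Pip, and combination, beside 4.24%, 7.31%, 3.79%, 5.25% and 6.2% of all genes. With 1 matching splice site allowed, poison forms were found for 3, 7, 9 and 9 genes in HepG2 and 4, 1, 4 and 4 in the Hep3B-labelled set, so the control of that set no longer differed from its Cur and Pip and combination libraries. HNRNPA3 in the Hep3B-labelled Cur and Pip library was at -0.54 by exon depth and -0.57 by fragments on the log2 scale, and above 0 by summed FPKM. The cause of these shifts was not tested. Exon depth is the mean over all canonical exons. Leaving out each library in turn left a treatment, or the control, with 1 library, so those limma fits cannot show whether a shared change holds. The labels give no replicate numbers, and limma held the line as a term.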
